A study of Mus musculus with 28 samples.

Results

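A2a nuclei of the adult mouse striatum carried 661 long H3K27me3 islands on chromosomes 1 to 19 at which the D1 list held no island. They are called A2a-alone islands here. They were chosen by 2 measured values, a length of at least 8 kb in the A2a list and no base shared with any island of the D1 list. They made up 661 of 7827 long islands on these chromosomes (8.45%) and of 60191 A2a islands of any length and chromosome. Of A2a islands of any length on chromosomes 1 to 19, 47.6% overlapped no D1 island. The D1 list held 45760 islands. Part of the A2a-alone islands lay near genes of the other cell type. Of 11 marker genes of direct pathway neurons, 8 had an A2a-alone island within 100 kb of the TSS. The share over all 20807 protein-coding genes on these chromosomes was 4.14%. These 8 include the neighbours *Drd1* and *Sfxn1*, which share their islands. None of 9 marker genes of indirect pathway neurons had such an island within 100 kb, which cannot be read as a depletion at that background. The island with the most reads, 81.8 kb long, lay downstream of *Drd1* in a stretch with no annotated gene. Since both H3K27me3 lists chose the islands, their lengths, reads and distances to D1 islands are given as a description.

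H3K27me3 is the trimethylation of lysine 27 of histone H3. It is laid down by Polycomb repressive complex 2, spreads from CpG-rich promoters into broad domains, and is known for the stable silencing of genes that belong to other cell types. H3K4me3 marks the start sites of active or poised genes. The striatum sends its output through medium spiny neurons (MSNs) of the direct pathway, which express the dopamine receptor gene *Drd1*, and of the indirect pathway, which express *Drd2* and the adenosine receptor gene *Adora2a*.

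The libraries were made by CUT&RUN (CnR, in which a nuclease tethered to an antibody cuts out the bound chromatin) on nuclei purified by INTACT, which pulls down nuclei tagged with a green fluorescent nuclear envelope protein. All mice carried R26-CAG-LSL-Sun1-sfGFP on C57BL/6J. In Sun1-sfGFP;A2a-cre mice the tag is switched on by Cre in A2a-expressing cells, and in Sun1-sfGFP;Drd1-cre mice in *Drd1*-expressing cells, so each group holds whichever striatal cells drive its Cre. Male and female mice of about 8 weeks were used. Of 28 samples in the series, 8 stand behind the lists used here, with 2 pooled replicates for each of the A2a and D1 nuclei and for each of H3K27me3 (Active Motif antibody) and H3K4me3 (Abcam antibody). Pooling leaves no error between mice, so no difference between A2a and D1 was tested across mice. Intervals on shares are 95% Wilson intervals and those on medians are exact binomial, which cover counting error only, and islands in the same neighbourhood are not independent.

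The labels of the D1 H3K27me3 samples conflict, since the title and cell type read D1 and the source name reads A2a. They were taken as D1. The islands themselves were checked at the marker genes, by the length they covered in the 25 kb on either side of the TSS. The A2a islands covered more than the D1 islands at 11 of 11 direct pathway genes (medians 37.4 and 9.4 kb), where 42.8% of all genes did so. Of these genes, *Drd1* and *Sfxn1* are neighbours with overlapping windows and are not independent. The D1 islands covered more at 9 of 9 indirect pathway genes (medians 33.4 kb in D1 and 3.4 kb in A2a), where 6.31% of all genes did so. The 2 lists thus carried opposite patterns at both gene sets, in the direction of the titles. The gene sets were written with earlier results of these data known, so this is not an independent check of the labels.

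The DNA under the A2a-alone islands varied in CpG, both at promoters and away from genes. The sequences shown are those of the 8 protein-coding promoters in the A2a-alone islands with the most reads, from 250 bases before to 50 after the TSS, and, chosen for their CpG, the 300 bases with the most CG in each of the 2 gene-free A2a-alone islands with the most reads. They were read from the RefSeq copy of GRCm38 at GENCODE start sites, 5′ to 3′ on the strand named. The same promoter window was also listed for RefSeq at *Nrg3*, *Adcy2*, *Ssu2* and *Schip1*, and not at *Asic4*, *Foxp4*, *Il20ra* and *Med10*. Which start sites these nuclei use was not tested. Capitals mark each CG, which reads the same on both strands. Repeat-masked bases are not marked, and whether a stretch shown is a copy of a repeat was not checked.
Asic4 (chr1:75450186-75450485, plus strand, 14 CG): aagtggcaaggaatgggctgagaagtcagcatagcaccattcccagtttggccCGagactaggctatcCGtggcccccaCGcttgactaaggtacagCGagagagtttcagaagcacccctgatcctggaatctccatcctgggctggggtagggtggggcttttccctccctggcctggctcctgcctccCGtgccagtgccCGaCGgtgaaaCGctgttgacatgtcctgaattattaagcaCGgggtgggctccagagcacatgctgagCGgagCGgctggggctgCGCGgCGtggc
Nrg3 (chr14:39473039-39473338, minus strand, 36 CG): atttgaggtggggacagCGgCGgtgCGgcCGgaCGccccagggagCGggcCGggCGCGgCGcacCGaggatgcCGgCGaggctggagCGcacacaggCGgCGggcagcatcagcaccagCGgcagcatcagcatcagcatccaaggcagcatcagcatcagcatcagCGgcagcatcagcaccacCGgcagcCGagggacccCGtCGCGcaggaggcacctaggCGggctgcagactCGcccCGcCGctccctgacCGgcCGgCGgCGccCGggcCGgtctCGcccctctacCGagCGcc
Adcy2 (chr13:68999492-68999791, minus strand, 32 CG): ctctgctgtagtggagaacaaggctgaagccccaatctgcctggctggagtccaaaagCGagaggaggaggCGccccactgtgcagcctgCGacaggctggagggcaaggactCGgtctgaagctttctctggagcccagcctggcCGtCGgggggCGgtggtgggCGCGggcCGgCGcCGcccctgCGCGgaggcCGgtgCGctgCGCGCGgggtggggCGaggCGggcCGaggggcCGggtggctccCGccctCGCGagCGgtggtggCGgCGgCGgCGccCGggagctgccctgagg
Foxp4 (chr17:47924596-47924895, minus strand, 33 CG): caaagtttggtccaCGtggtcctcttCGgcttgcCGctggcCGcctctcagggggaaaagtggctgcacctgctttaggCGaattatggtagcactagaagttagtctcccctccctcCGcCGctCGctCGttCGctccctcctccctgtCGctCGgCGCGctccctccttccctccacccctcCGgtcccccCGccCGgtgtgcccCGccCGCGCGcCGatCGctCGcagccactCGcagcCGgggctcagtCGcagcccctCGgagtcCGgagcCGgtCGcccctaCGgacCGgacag
Il20ra (chr10:19712320-19712619, plus strand, 12 CG): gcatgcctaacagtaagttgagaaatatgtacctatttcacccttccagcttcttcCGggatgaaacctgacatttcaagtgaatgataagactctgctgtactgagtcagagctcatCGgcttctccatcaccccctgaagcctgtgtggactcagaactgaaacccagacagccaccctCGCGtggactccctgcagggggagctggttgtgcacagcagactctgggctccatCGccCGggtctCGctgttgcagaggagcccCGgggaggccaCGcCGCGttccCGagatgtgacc
Ssu2 (chr6:112387974-112388273, minus strand, 8 CG): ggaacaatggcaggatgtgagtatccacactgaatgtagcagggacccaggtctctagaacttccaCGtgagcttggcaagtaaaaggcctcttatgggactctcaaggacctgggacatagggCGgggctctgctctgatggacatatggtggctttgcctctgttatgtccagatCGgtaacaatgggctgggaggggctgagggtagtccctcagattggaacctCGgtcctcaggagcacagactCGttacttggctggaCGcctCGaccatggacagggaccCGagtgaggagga
Schip1 (chr3:68064552-68064851, plus strand, 5 CG): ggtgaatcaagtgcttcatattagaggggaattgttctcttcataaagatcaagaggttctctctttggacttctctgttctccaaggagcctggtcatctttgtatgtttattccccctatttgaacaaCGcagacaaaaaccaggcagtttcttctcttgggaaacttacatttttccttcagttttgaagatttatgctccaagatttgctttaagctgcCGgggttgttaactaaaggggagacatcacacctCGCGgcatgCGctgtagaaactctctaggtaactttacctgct
Med10 (chr13:69802145-69802444, plus strand, 3 CG): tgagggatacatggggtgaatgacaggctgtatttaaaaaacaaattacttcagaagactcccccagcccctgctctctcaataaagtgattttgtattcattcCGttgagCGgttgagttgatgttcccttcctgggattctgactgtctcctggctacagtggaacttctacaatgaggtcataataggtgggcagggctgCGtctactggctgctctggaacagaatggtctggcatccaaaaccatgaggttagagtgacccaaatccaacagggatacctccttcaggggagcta
Gene-free island near Drd1 (chr13:53872868-53873167, plus strand, 22 CG): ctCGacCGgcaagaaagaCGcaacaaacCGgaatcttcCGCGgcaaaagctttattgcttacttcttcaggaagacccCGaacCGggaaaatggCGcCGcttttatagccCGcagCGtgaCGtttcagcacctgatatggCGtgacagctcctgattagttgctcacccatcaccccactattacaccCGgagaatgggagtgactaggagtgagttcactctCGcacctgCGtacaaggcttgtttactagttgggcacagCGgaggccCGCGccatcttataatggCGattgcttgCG
Gene-free island near Nxt1 (chr2:148573650-148573949, plus strand, 7 CG): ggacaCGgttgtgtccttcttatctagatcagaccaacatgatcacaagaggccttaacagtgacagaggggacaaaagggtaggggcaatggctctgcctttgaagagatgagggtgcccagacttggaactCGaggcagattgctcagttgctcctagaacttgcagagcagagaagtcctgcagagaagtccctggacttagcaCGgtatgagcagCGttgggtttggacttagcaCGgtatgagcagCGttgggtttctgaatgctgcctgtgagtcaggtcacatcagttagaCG

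The promoters of *Nrg3*, *Foxp4* and *Adcy2* held 36, 33 and 32 CG, and those of *Med10* and *Schip1* held 3 and 5. Over all protein-coding promoters of this length the median was 12 (quartiles 3 and 23) and 94.9% held at least 1. The 68 promoters in A2a-alone islands had a median of 9.5 (quartiles 3.75 and 21.2). Promoters in long A2a islands that did overlap a D1 island had a median of 13 (quartiles 6 and 22). Over their whole length, the A2a-alone islands had a median GC content of 43.4% and a median CpG observed over expected ratio of 0.174 (interval 0.169 to 0.180). In long islands that overlapped D1 these were 44.1% and 0.208, and over chromosomes 1 to 19 as a whole 41.9% and 0.194. Counted per kb, the A2a-alone islands held a median of 8.44 CpG, the long islands that overlapped D1 10.2 and the chromosomes 8.51. The A2a-alone islands were thus lower in CpG than the long islands shared with D1 by both measures. The chromosome values are single values over all bases, not medians over intervals, so they are not a like comparison. The medians over all A2a islands on these chromosomes were a ratio of 0.182 and 8.57 CpG per kb. Repeat-masked bases took a median of 19.2% of the A2a-alone islands and 18.7% of the shared long islands, and 33.5% of all bases of the chromosomes.

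Most A2a-alone islands sat just above the length limit. Their lengths ran from 8.0 to 81.8 kb with a median of 9.4 kb, and together they covered 7.34 Mb. They held from 350 to 8608 reads, with a median of 602. The density ran from 43.8 to 154.7 reads per kb, with a median of 62.5. The 7166 long islands that overlapped D1 were longer (median 11.6 kb) and denser (median 75.6 reads per kb, up to 232.7). At the limit, 67 A2a-alone islands were 8.0 kb long (350 to 668 reads) and 72 islands of 7.8 kb without a D1 island fell just outside it (348 to 636 reads). A further 4 long islands shared no more than 200 bp with a D1 island. The A2a-alone islands were spread over all 19 autosomes, from 6.17% of the long islands on chromosome 15 to 14.5% on chromosome 7.

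**Figure D1:**
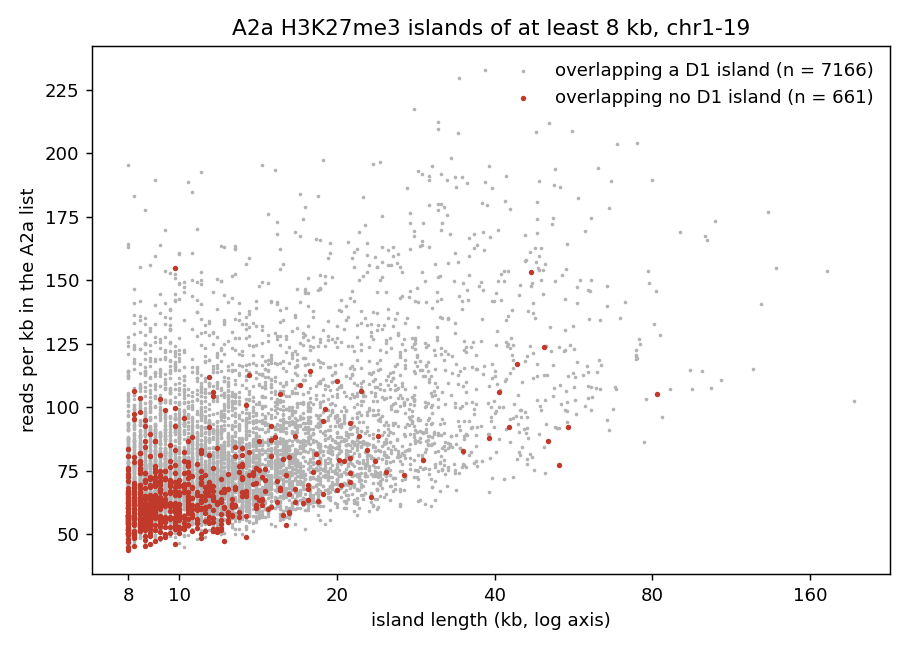
Length in kb (log axis) and A2a reads per kb of every A2a H3K27me3 island of at least 8 kb on chromosomes 1 to 19, 1 point per island. The 661 islands without a D1 island (red) lie mostly at short length and low density, while a few reach over 40 kb or over 100 reads per kb among the 7166 islands that overlap D1 (grey).

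The share of long islands without a D1 island fell with density. It was 25% (252 of 1006, interval 22.5 to 27.8) below 60 reads per kb and 1.45% (19 of 1311, 0.930 to 2.25) at 100 reads per kb or more. By length it was 13.5% at 8 to 10 kb and 2.08% at 20 to 40 kb. For islands of 40 kb or more it was 3.83% (9 of 235, 2.03 to 7.12). The lists differed in depth as well. Their islands held 22091634 reads in A2a and 7878685 in D1, a mean of 73.4 and 42.8 reads per kb. In 1071 pairs of long islands that matched one to one, the A2a island had a median of 1.92 times the reads per kb of the D1 island (quartiles 1.76 and 2.08). The 5th percentile of long D1 islands was 33.1 reads per kb, which at that ratio is 63.4 in A2a, and 309 A2a-alone islands (46.7%) reached this density. The part of depth in the absence of the 661 islands from the D1 list was not tested, above this density or below it. Absence from the D1 list is not a signal of 0, and a weaker mark in every nucleus cannot be told apart from a mark in fewer nuclei.

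**Figure D2:**
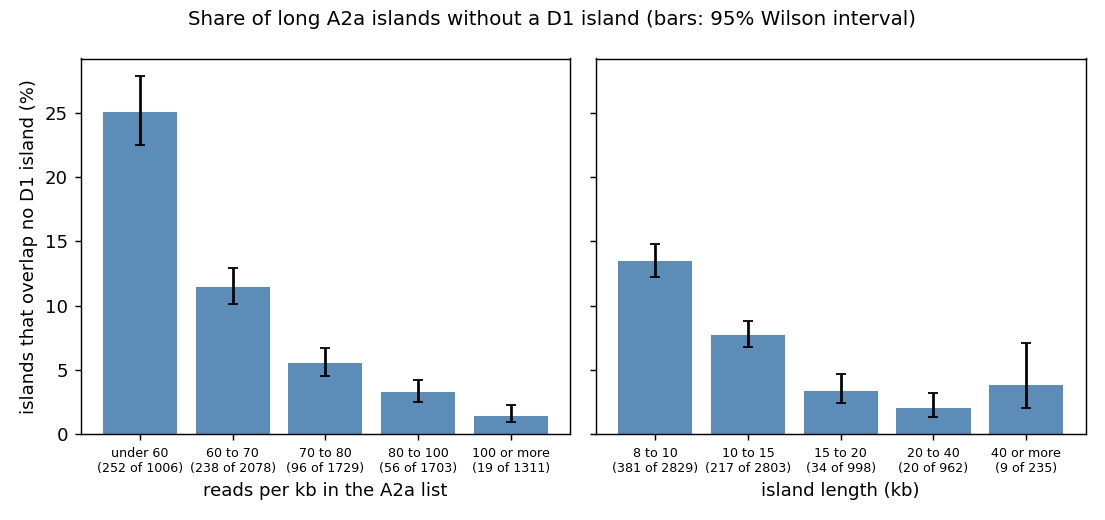
Percent of long A2a islands that overlap no D1 island, by A2a reads per kb (left) and by island length (right), with the counts under each bar and 95% Wilson intervals. The share falls from 25% in the sparsest islands to 1.45% in the densest, and from 13.5% at 8 to 10 kb to 2.08% at 20 to 40 kb.

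D1 islands were often close by. The nearest D1 island lay a median of 13.8 kb away (interval 11.2 to 16.2, quartiles 4.6 and 40), and the distance ran from 0 to 1027.8 kb. There were 4 A2a-alone islands that touched a D1 island end to end, 184 with one within 5 kb and 88 with none within 100 kb. The *Lingo2* island with the most reads was 628.2 kb from the nearest D1 island, whereas the 81.8 kb island near *Drd1* was 6.2 kb from one.

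Near *Drd1*, which encodes the dopamine receptor of the direct pathway (chr13:54051183-54055705, minus strand), A2a-alone islands lined the region downstream of the gene. An island of 16.2 kb with 1306 reads began 10.3 kb from the TSS, and one of 13.2 kb with 1073 reads lay 39.7 kb away. Beyond them, the stretch chr13:53746801-53873400 held 3 A2a-alone islands of 120.4 kb in sum, with 11778 reads, and no D1 island. It has no annotated gene. Its largest island, chr13:53791601-53873400, began 182.3 kb from the *Drd1* TSS, had 105.2 reads per kb and was both the longest A2a-alone island and the one with the most reads. Within 250 kb on either side of the *Drd1* TSS, the A2a islands of every kind covered 243.5 kb and the D1 islands 44.8 kb. *Sfxn1*, a mitochondrial serine transporter gene that neighbours *Drd1*, shares these islands, and the nearest lay 26.5 kb from its TSS. The *Sfxn1* promoter itself met a D1 island and no A2a island.

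Around *Tac1*, the gene of the substance P precursor (chr6:7554879-7565834, plus strand), A2a-alone islands formed their longest series. Between chr6:7210401 and 7658400 there were 13 of them, of 160.6 kb in sum and with 12768 reads, most of them upstream. In this stretch the A2a islands of every kind covered 306.0 kb and the D1 islands 5.0 kb. The single largest was 29.2 kb long with 2315 reads, 170.5 kb from the TSS. The densest was 11.4 kb long with 112.0 reads per kb, 55.5 kb from the TSS. The A2a island over *Tac1* itself overlapped a D1 island and is not among them.

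*Ebf1*, which encodes a transcription factor of direct pathway neuron differentiation (chr11:44617317-45008091, plus strand), held 7 A2a-alone islands within its body, 147.3 kb of the gene. The first, chr11:44672201-44727400, was the second longest of all at 55.2 kb and had 5091 reads. It began 54.9 kb into the gene and lay 6.4 kb from a D1 island. The last 5, between chr11:44891001 and 45012600, followed each other over 121.6 kb without a D1 island. *Zfp521*, a zinc finger transcription factor gene (chromosome 18), held 5 A2a-alone islands of 64 kb in sum. The largest, of 16.6 kb with 1470 reads, lay 241.2 kb into the gene, and the nearest to the TSS lay 9.2 kb away. D1 islands were frequent there too, and covered 150.4 kb of the 250 kb on either side of the TSS against 389.4 kb in A2a.

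*Slc35d3*, a solute carrier gene (chr10:19847916-19851459, minus strand), had 4 A2a-alone islands downstream, of 44.2 kb in sum. No D1 island lay in the stretch chr10:19708201-19797400 that held them. The nearest began 54.1 kb from the *Slc35d3* TSS. Of the 4, 3 met the body of *Il20ra*, an interleukin-20 receptor subunit gene, and took 28.3 kb of it. The farthest from *Slc35d3* covered the promoter of *Il20ra*. It was the densest of all A2a-alone islands, with 1516 reads over 9.8 kb (154.7 reads per kb). Near *Pdyn*, the gene of the dynorphin precursor (chr2:129686565-129699844, minus strand), 4 A2a-alone islands lay upstream, between chr2:129764401 and 129910200. They were of 43.6 kb in sum with 2916 reads, without a D1 island. The nearest began 64.6 kb from the *Pdyn* TSS and had 97.4 reads per kb, and *Stk35*, a kinase gene, lies between the islands.

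*Asic4*, a gene of the acid-sensing channel family (chr1:75450436-75474343, plus strand), was the marker gene whose own promoter lay in an A2a-alone island. The island, chr1:75439401-75460600, was 21.2 kb long with 1991 reads, covered the first 10.2 kb of the gene and was 243.2 kb from the nearest D1 island. By contrast, the promoters of *Drd1*, *Pdyn*, *Tac1*, *Ebf1*, *Slc35d3* and *Zfp521* all met islands of both lists. At those 6 genes the A2a-alone islands lay in the flanks or the gene body, outside the promoter. Some began close to the end of the A2a promoter island that overlapped D1. From the TSS, that island ended at 9.5 kb at *Drd1*, and the next A2a-alone island began at 10.3 kb. The same 2 values were 8.4 and 9.2 kb at *Zfp521*, 53.9 and 54.9 kb at *Ebf1*, 11.5 and 13.5 kb at *Tac1*, and 50.1 and 54.1 kb at *Slc35d3*. Whether such neighbours are parts of one domain was not tested.

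**Figure D3:**
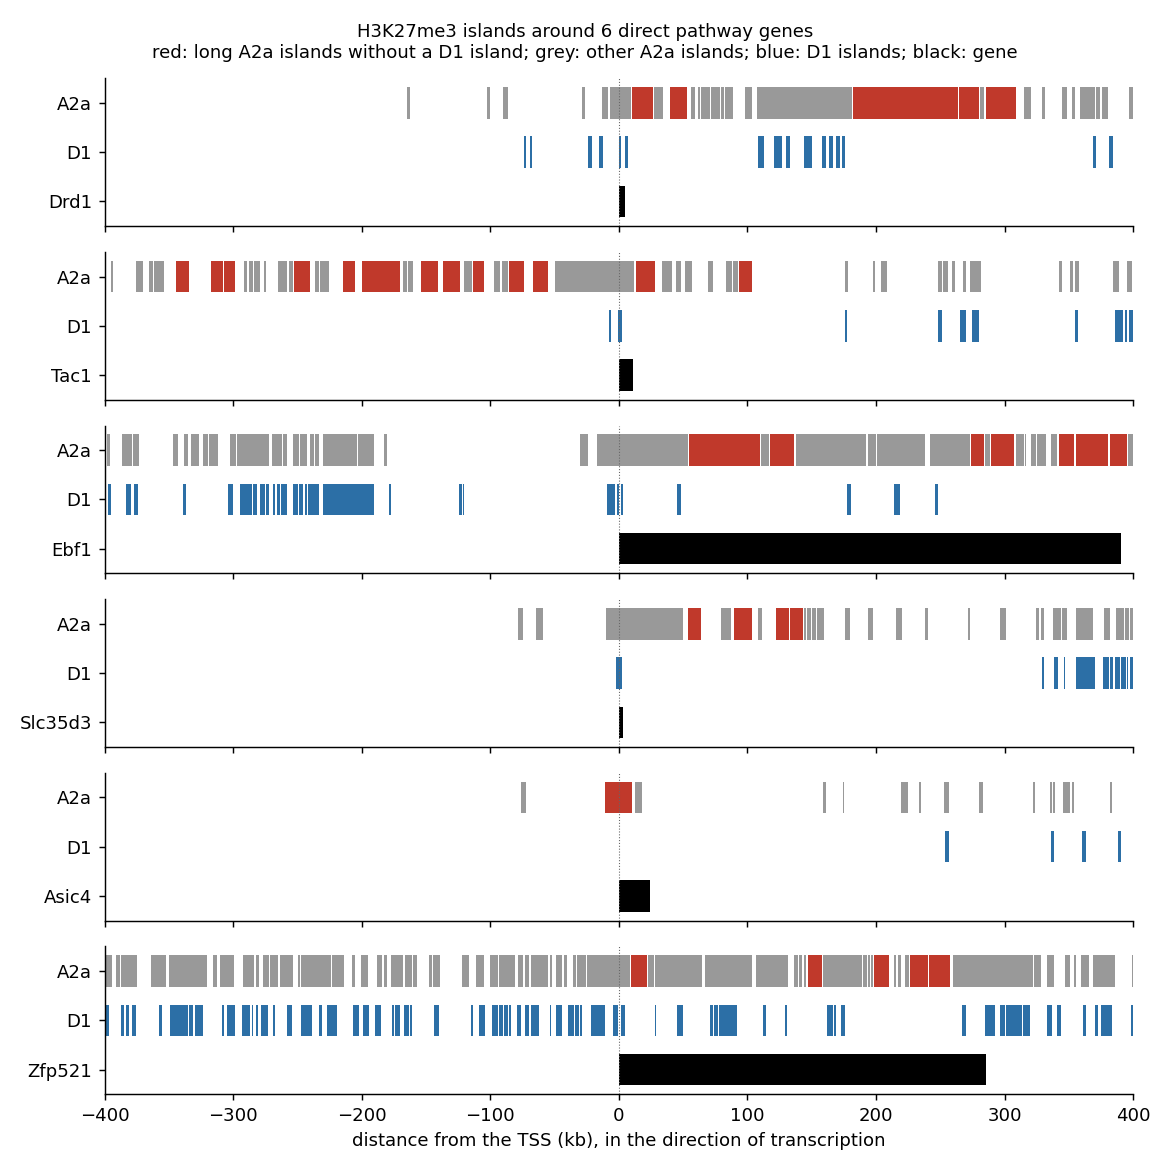
Islands of the A2a and D1 H3K27me3 lists within 400 kb of the TSS of 6 direct pathway genes, drawn to scale in kb and in the direction of transcription, with the gene in black. A2a-alone islands (red) line the downstream side of Drd1, the upstream side of Tac1 and the body of Ebf1, D1 islands (blue) meet the promoter of each gene but Asic4, and other A2a islands are grey.

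The marker lists were written with earlier results of these data known, so their counts are a description. Among the 11 direct pathway genes, the promoter or body of *Asic4*, *Ebf1* and *Zfp521* met an A2a-alone island (3 of 11, where 1.08% of all genes did), and those within 100 kb also included *Drd1*, *Pdyn*, *Sfxn1*, *Slc35d3* and *Tac1*. *Isl1*, *Eya1* and *Chrm4* had none within 1000 kb. Of the 661 islands, 29 (4.39%) lay within 250 kb of one of these 11 genes. They were 2 of the 10 islands with the most reads (20%), 11 of the first 50 (22.0%) and 17 of the first 100 (17%). The same shares over all long A2a islands are not given here, and the reads come from a list that chose the islands. Of 14 genes that both MSN types use, 3 had an A2a-alone island within 100 kb. *Foxp2*, a forkhead transcription factor gene, had one over its promoter (8.4 kb, 823 reads), and *Dlx5* and *Dlx6*, homeobox genes of forebrain GABA neurons, lay 26.3 and 7.5 kb from one. In the lists of other cells, the genes with an A2a-alone island within 100 kb, where 4.14% of all genes had one, were 1 of 16 interneuron genes (*Th*), 2 of 11 oligodendrocyte genes (*Olig1*, *Pdgfra*), 1 of 10 astrocyte genes (*Aqp4*), 1 of 12 microglia genes (*Sall1*) and 0 of 8 endothelial genes. None of 19 Polycomb genes had one. Of 15 activity-induced genes, *Egr2* had its promoter in an A2a-alone island of 11 kb with 797 reads.

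**Figure D4:**
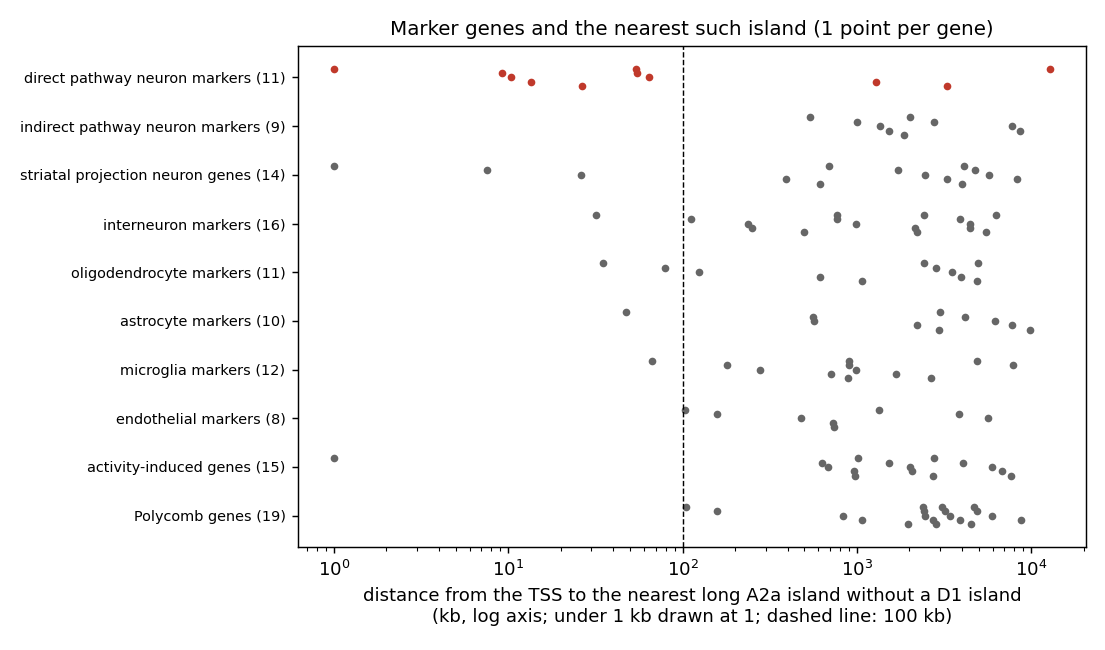
Distance in kb (log axis) from the TSS of each marker gene to the nearest A2a-alone island, 1 point per gene, by marker list. The direct pathway genes (red) hold 8 of 11 points left of the dashed line at 100 kb. The indirect pathway genes hold 0 of 9, which is no depletion where 4.14% of all protein-coding genes have such an island within 100 kb.

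Away from the marker genes, the A2a-alone islands with the most reads lay in a few long genes and gene-free stretches. *Lingo2*, which encodes a transmembrane protein with leucine-rich repeats (chr4:35706647-36951747), held 10 of them over 190.4 kb. The islands chr4:36277001-36324000 (47.0 kb, 7197 reads, 153.1 reads per kb) and chr4:36779601-36823800 (44.2 kb, 5180 reads, 117.2 reads per kb) ranked at places 2 and 4 by reads. Of the 10, 5 followed each other over 144.0 kb without a D1 island. On chromosome 2, 6 A2a-alone islands of 134.0 kb in sum lay between 148415801 and 148669400, near *Cd93* and *Nxt1*. They included chr2:148619801-148669400 (49.6 kb, 6135 reads, 123.7 reads per kb) and the gene-free island chr2:148556401-148595400 (39.0 kb, 3426 reads).

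The other islands among the 10 with the most reads lay at single genes. *Med10*, a Mediator subunit gene, had its annotated promoter in an island of 50.6 kb with 4395 reads that covered 4.0 kb of the gene. *Erbb4*, a receptor of neuregulins, held an island of 40.8 kb with 4318 reads, 538.3 kb from its TSS. *Retreg1*, a receptor gene for autophagy of the endoplasmic reticulum, held one of 53.0 kb with 4105 reads. *Mad1l1*, a gene of the spindle checkpoint, held one of 42.6 kb with 3926 reads. *Nrg3*, which encodes a neuregulin that binds ErbB4, had its promoter in an island of 19 kb with 1888 reads. *Adcy2*, an adenylyl cyclase gene, had its promoter in an island of 20.6 kb with 1622 reads, and a gene-free island of 34.8 kb with 2875 reads lay 41.5 kb from that TSS. An island of 17.8 kb on chromosome 13, chr13:70223801-70241600, had the fifth highest density (114.3 reads per kb), with no protein-coding TSS within 396.0 kb.

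A2a-alone islands often had others close by. Joined where they were at most 100 kb apart, a distance chosen after the data were seen, they made 504 groups. Of these, 420 were single islands and 84 held 241 islands between them. There were 17 groups of at least 4, with 99 islands. Besides the groups described above, groups without any D1 island lay in *Xylt1*, which encodes the enzyme that starts glycosaminoglycan chains (7 islands, 95 kb), and in *Sntg2*, a syntrophin gene (6 islands, 58.2 kb). *Dscam*, a cell adhesion gene, had 8 in and next to it, of 103.8 kb in sum, with 72.0 kb of D1 islands between them. In all, 17 genes held 3 or more A2a-alone islands each, 77 islands together. These genes were long, from 47.5 to 1245.1 kb with a median of 294.5 kb, against a median of 17.6 kb for all protein-coding genes.

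Few A2a-alone islands reached a promoter. The window from 2 kb upstream to 1 kb downstream of a protein-coding TSS was met by 61 of them (9.23%, interval 7.25 to 11.7), against 21.2% (20.3 to 22.1) of the long islands that overlapped D1. They met the body of a protein-coding gene in 40.8% and no annotated gene in 42.7% of cases, against 48.0% and 37.1%. They lay in a gene body without meeting an exon in 17.7% (15 to 20.8) against 11.9% (11.1 to 12.6). The difference at promoters was not alike at every strength. Among islands of 8 to 12 kb with 55 to 80 reads per kb, a range chosen after the data were seen, a promoter was met by 34 of 383 A2a-alone islands (8.88%, 6.42 to 12.1) and by 218 of 2602 that overlapped D1 (8.38%, 7.37 to 9.51). At 80 reads per kb or more the shares were 9 of 75 (12%, 6.44 to 21.3) and 1139 of 2939 (38.8%, 37.0 to 40.5). The CpG ratio was lower in A2a-alone islands in both ranges, with medians of 0.176 against 0.193 and of 0.166 against 0.240. In the first range the promoter shares lay within each other's intervals, and among the dense islands the A2a-alone ones met a promoter less often. The dense range had no length limit, and its A2a-alone islands were shorter (median 11.8 kb against 14.6 kb). The part of length in this difference was not tested.

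The 61 islands covered the promoters of 68 protein-coding genes (0.327% of 20807). Among gene families, the promoters were those of *Foxp2* and *Foxp4* (forkhead factors), *Ascl2* (a basic helix-loop-helix factor), *Robo4* (a Slit receptor family gene of vessels), *Kcnh6* and *Kcnj12* (potassium channels), *Olfr30* (an olfactory receptor), and *Slc22a18* and *Slc25a13* (solute carriers). None of 154 homeobox and Pax genes had its promoter in an A2a-alone island. With a share of 0.327% over all genes, a count of 0 in 154 cannot be read as a depletion. An A2a-alone island lay within 100 kb of the TSS for 11 of the 154 (7.14%). Within 100 kb there were also 11 of 78 Fox, Sox, Tbx and Gata genes (14.1%), 9 of 68 genes of Wnt, Fgf, Bmp and related ligands (13.2%) and 9 of 49 keratin genes (18.4%), against 15 of 1087 olfactory receptor genes (1.38%) and 0 of 326 vomeronasal receptor genes, where 4.14% is the background. Keratin, olfactory receptor and vomeronasal receptor genes lie in clusters and share islands, and their copies are alike in sequence.

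H3K4me3 came from other libraries than the rule used. An A2a peak overlapped 50 A2a-alone islands (7.56%, interval 5.78 to 9.83) and a D1 peak 49 (7.41%, 5.65 to 9.67). In the long islands that overlapped D1, these shares were 16.8% (16.0 to 17.7) and 13.1% (12.4 to 13.9). Both lists had a peak in 44 A2a-alone islands, A2a alone in 6 (0.908%, 0.417 to 1.97) and D1 alone in 5 (0.756%, 0.324 to 1.76), and 606 had none. In the long shared islands, 4.05% (3.61 to 4.53) had a peak in A2a alone and 0.335% (0.225 to 0.498) in D1 alone. Counted by peak, 6 of 54 D1 peaks in A2a-alone islands (11.1%) had no A2a peak over them, where 5.12% of D1 peaks on these chromosomes had none. Of these 6, 3 lay on the downstream side of *Drd1*, at chr13:53777841-53778425, chr13:53865488-53865729 and chr13:54030594-54031018, with fold enrichments of 3.52, 3.52 and 4.63. They were weak peaks, at percentiles 3.0, 3.69 and 16.2 of the D1 list by −log10 q. Another lay in the *Asic4* island (fold enrichment 3.0, percentile 24.4). The rest lay on other chromosomes, at chr4:40301343-40301668 (fold enrichment 4.14, percentile 10.5) and chr18:52679659-52679918 (4.35, percentile 12.9).

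The strength of promoter peaks was compared by rank, since the lists have no common scale. Each peak was given its percentile by −log10 q within its own list. Of the 68 genes with the promoter in an A2a-alone island, 29 had a promoter peak in both lists, 2 in A2a alone (*Arhgap25* and *Ascl2*), 0 in D1 alone and 37 in neither. Over the 29, the median A2a minus D1 difference was 6.08 percentile points (interval −1.95 to 9.42), and the D1 percentile was higher for 10 (34.5%). Over all 11788 genes with a peak in both lists, the median was 3.87 and the D1 percentile was higher for 34.6%. The median over all genes lies within the interval for the 29. Over 684 genes with the promoter in a long A2a island that overlapped D1, the median was 10.7 (interval 10.03 to 11.5), above that interval. The D1 percentile was higher for 80 of these (11.7%). Over 521 genes with the promoter in other A2a islands without D1 overlap, the median was 7.70, and D1 was higher for 104. Median A2a percentiles were 58.1 over the 29, 43.8 over the 684, 59.9 over the 521 and 74.1 over all genes. With the A2a list cut down to its strongest peaks so that both lists were of equal size, the medians were −0.198 over 28 genes and 0.483 over all. Some of the 29 share a promoter peak, as *Tap1* with *Psmb9* and *Lrrc75a* with *Mmgt2* do.

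The promoters in the A2a-alone islands with the most reads were also looked at one by one. Of the 8 whose sequences are given, 6 had a peak in both lists and *Med10* and *Ssu2* in neither. The D1 percentile was the higher at 5 of the 6, where 34.6% of all genes with a peak in both lists and 34.5% of the 29 had it higher. The *Nrg3* peak was at percentile 54.7 in A2a and 68.1 in D1, that of *Asic4* at 39.5 and 50.7, and that of *Il20ra* at 32.8 and 48. *Foxp4* (70.3 and 73.4) and *Schip1* (2.92 and 4.86) differed by less, and *Adcy2* (47.5 and 44.4) was higher in A2a. These are 6 genes without replicate error. Among the 17 genes with 3 or more A2a-alone islands, 13 had a promoter peak in both lists, and the D1 percentile was higher for 7 (53.8%, against 34.6% of all genes) and the A2a percentile for 6. They included *Lingo2* (38.1 in A2a and 54.3 in D1), *Sntg2* (41.7 and 56.7) and *Dscam* (31.6 and 49.2), and, in the opposite direction, *Zfp521* (71.6 and 49.8). *Ebf1* and *Skap1* had a promoter peak in D1 alone, *Lrmda* in A2a alone, and *Fhl2* in neither. With equal numbers of peaks the D1 percentile was higher for 9 of these 13 genes, against 47.4% of all genes. This group of 17 genes was formed after the values had been seen. A wider set leaned the other way. Of 156 genes that met an A2a-alone island with the body but not the promoter, 88 had a promoter peak in both lists. Over these 88 the median A2a minus D1 difference was 6.47 percentile points, and the D1 percentile was higher for 15 (17.0%).

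**Figure D5:**
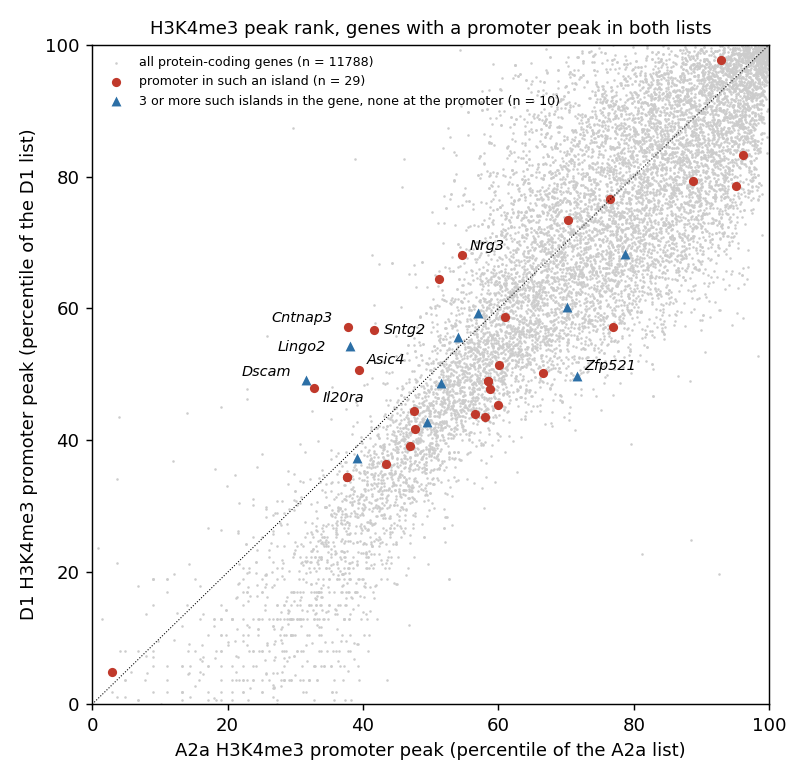
Percentile of the strongest H3K4me3 promoter peak in the A2a list (x axis) and the D1 list (y axis), 1 point per protein-coding gene with a peak in both (grey, n = 11788), with the dotted line at equal rank. Genes with the promoter in an A2a-alone island (red, n = 29) lie on both sides of the line, as do the 10 genes with 3 or more such islands in the body and none at the promoter (blue triangles), and Lingo2, Dscam, Sntg2, Il20ra, Nrg3, Asic4 and Cntnap3 are among those above it.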

How the data were processed

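CnR reads from INTACT-purified nuclei were mapped by the authors to mm10 with bowtie2 (version 2.1.0), filtered at a mapping quality of 20, deduplicated and limited to inserts of 150 to 500 bp. The authors called H3K27me3 islands with SICER on 2 pooled replicates (window 200 bp, gap 600 bp, false discovery rate 0.01) against a control whose library is not given in the sources used here. The deposited value of an island is its read count, not normalized. For H3K4me3 the authors ran MACS2, and each deposited peak has a fold over background, which is a ratio inside one pooled library, and its −log10 q-value. Library totals are not part of the lists, so the depth is known here only as reads in islands.

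A2a islands on chromosomes 1 to 19 of at least 8000 bp were kept where no base was shared with a D1 island. Genes came from GENCODE release 21 for mouse. The genome was GRCm38, and 0 intervals ran past a chromosome end. *Gpr52* and *Rbbp7* were not among the genes used. The result of 1 further marker list is not reported here. The genes and islands named are those of the 10 A2a-alone islands with the most reads, the 10 longest, the 5 densest and the 3 gene-free ones with the most reads, marker genes met by an island, and family genes with the promoter in one. *Cntnap3*, *Arhgap25*, *Tap1*, *Psmb9*, *Lrrc75a*, *Mmgt2*, marker genes within 100 kb, neighbours of named islands and genes with 3 or more islands were named after their values were seen. The rule for the islands, the gene lists and the families were chosen with earlier results of these data known. Overlap routines were tested on simulated islands. Work was done in Python (version 3.11.15) with numpy (version 2.4.6), pandas (version 2.3.3), scipy (version 1.17.1) and matplotlib (version 3.10.9). Alternatives changed the length limit, the overlap rule, the numbers of islands and peaks, the promoter window and the TSS.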

Additional observations from a re-analysis of the deposited data

How the results depend on the processing

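No paired analysis was possible because each list pools its replicates, and for the same reason no replicate could be left out. Of 136 recomputed values, 88 stayed within the interval of the value reported or within 1.5 times the count, and 2 changed sign. The 88 include the values from keeping only as many of the strongest A2a islands as D1 islands, which could not differ. Every A2a-alone island had at least 350 reads, and the lower quartile of A2a islands was 147, so this cut removed none of them. With islands of at least 5000 bp there were 3733 A2a-alone islands, a median distance to D1 of 10.6 kb, A2a and D1 H3K4me3 peaks in 5.65% and 5.12%, and 297 genes with the promoter in one. At 12000 bp there were 139, with 23.6 kb, 10.1%, 10.8%, 14 genes and a median CpG ratio of 0.168, and the H3K4me3 percentile difference turned to −1.04 over 6 genes. It also turned, to −0.198, with the A2a peaks cut to the number of D1 peaks. The median distance was 22.8 kb where no D1 island was allowed within 5000 bp and 10.7 kb where D1 islands could cover 10% of an island. Merging islands within 5000 bp gave 1749 islands, 20.4 kb and 215 genes. With the TSS of any transcript, 15% of the islands met a promoter, of 105 genes. The length limit and the overlap rule set the number of islands and genes by construction, and the cause of the other shifts was not tested. Chosen after seeing the data, a limit of 63.4 reads per kb left 309 islands, a distance of 16.8 kb, H3K4me3 peaks in 10.0% for A2a and 10.0% for D1, and 31 genes. Within 50 kb in place of 100 kb, 5 direct pathway genes had an A2a-alone island. The count of 8 such genes within 100 kb changed by less than 1.5 times under each of the other 8 settings. It was 6 with islands within 5000 bp merged, 7 with no D1 island allowed within 5000 bp and 9 with islands of at least 5000 bp. Under the rest it stayed at 8, and the cut to equal numbers of islands could not change it. Library totals are not known here, and the part of depth in the absence of islands from the D1 list was not tested.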

Other observations

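Chromosome X was not part of the rule for the A2a-alone islands. On it, 11 of 57 long A2a islands overlapped no D1 island (19.3%, 95% Wilson interval 11.1 to 31.3), against 8.45% on chromosomes 1 to 19.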
